A study of Mus musculus with 90 samples.

Results

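The 7 genes described here encode surface antigens of blood stem and progenitor cells: Ly6a, Procr, Kit, Cd34, Flt3, Cd24a and Pdzk1ip1. They were taken by symbol from a list drawn up with earlier results of these data known, and all 7 were found among the 35869 genes of a single-cell table. The cells were CD41-positive hematopoietic stem cells sorted from mouse bone marrow, kept in culture for 2 days and then picked 1 by 1 for SMART-Seq, which copies whole transcripts of a single cell. CD41 is the integrin subunit that platelets and megakaryocytes (MK, the platelet-forming cells) share with a subset of stem cells. Picked cells were labelled MK-like (MK) or not MK-like (NMK).

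All mice carried Runx1 alleles flanked by loxP sites (RUNX1f/f) and received 4 poly(I:C) injections, 4 weeks before the cells were taken. Wild-type (WT) mice were MxCre1-/-,RUNX1f/f and knockout (KO) mice were MxCre1+/-,RUNX1f/f. RUNX1 binds DNA and regulates blood cell genes, those of megakaryocytes among them. The Mx1 promoter answers interferon in many cell types, so the Cre it drives is not restricted to stem cells. Poly(I:C) induces interferon, and the controls received it too. Mouse ages and sorting markers beyond CD41 were not given in the sources used here. The authors kept 33 of 46 libraries in a table without outliers, which held 22 NMK cells (9 WT and 13 KO) and 11 MK cells (6 WT and 5 KO). Every library holds 1 cell, and the labels tie no cell to its mouse or dish. A group was therefore treated as a single sample, without tests. Errors are SDs between cells, and a difference is set beside the pooled SD between cells. The term higher or lower by 1 or more refers to a difference of 1 or more in mean log2(TPM + 1), where TPM is an abundance corrected for transcript length and scaled to the same total in each library.

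Several libraries stood apart before any of these genes was considered. The mean log2(TPM + 1) of 14 housekeeping genes was 8.36 to 10.04 in 31 libraries, whose scores are called sound. It was 4.62 in KO NMK B1-1b, where mitochondrial genes held 91.6% of all TPM, and 3.01 in KO NMK B1-2a, which had 3011 genes above 0. The same score over 16 megakaryocyte-platelet genes was 4.73 to 5.85 in WT MK cells and 0.75 to 2.01 in WT NMK cells. KO MK cells 1B, 1A and B1-3 had marker scores of 8.50, 7.64 and 7.30 and are called platelet-rich. KO MK cells B1-4 and 2 had scores of 1.27 and 2.11, inside the KO NMK range of 0.72 to 2.55 and against their label, and are called marker-poor. The 5 WT MK libraries whose titles have no prefix correlated with each other at 0.972 to 0.981 over all genes, against a median of 0.789 among WT NMK cells. Their spread may therefore understate that between cells. Genes above 0 numbered 5475 to 11715 in WT NMK and 14089 to 15252 in WT MK libraries. They numbered 3011 to 10987 in KO NMK and 11896 to 14487 in KO MK libraries. Results are given with and without the libraries of low housekeeping score and the marker-poor ones. The 5 similar WT MK libraries are counted once only for MK against NMK cells of WT mice. Runx1 itself ran from 0 to 15.7 TPM in WT NMK, 7.6 to 22.2 in WT MK, 0 to 41.5 in KO NMK and 8.9 to 47.5 TPM in KO MK cells, so it was not lower under the KO label. It is counted as a whole gene, which does not isolate the floxed exons and so cannot check the genotype labels.

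In mouse bone marrow, stem cells are usually gated by absence of lineage markers and presence of Kit and Sca-1, the product of Ly6a. Procr (the endothelial protein C receptor, CD201) enriches for long-term stem cells within that gate, whereas CD34 and Flt3 appear as these cells pass to short-term stem cells and multipotent progenitors. CD24 is a small glycoprotein on progenitors of several lineages, and Pdzk1ip1 (also called MAP17) encodes a small membrane protein transcribed in stem cells.

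Promoters are shown for Cd34 and Pdzk1ip1, the members that differed between genotypes in opposite directions in NMK cells. Each sequence is the 250 bases before the RefSeq transcription start on GRCm38.p6, with a GATA hexamer in capitals, at chr1:194938571-194938820 (plus strand) for Cd34 and chr4:115088458-115088707 (plus strand) for Pdzk1ip1.
Cd34: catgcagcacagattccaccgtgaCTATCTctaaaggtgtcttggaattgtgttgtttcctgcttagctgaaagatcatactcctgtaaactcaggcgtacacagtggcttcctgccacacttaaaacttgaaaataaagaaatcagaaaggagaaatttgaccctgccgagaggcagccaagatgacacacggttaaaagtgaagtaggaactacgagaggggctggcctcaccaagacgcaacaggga
Pdzk1ip1: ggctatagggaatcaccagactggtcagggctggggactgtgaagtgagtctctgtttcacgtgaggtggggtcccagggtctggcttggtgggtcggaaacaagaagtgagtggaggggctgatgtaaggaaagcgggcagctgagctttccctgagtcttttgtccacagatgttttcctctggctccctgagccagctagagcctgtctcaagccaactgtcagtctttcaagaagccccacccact
The RUNX hexamers searched were TGTGGT and its variant TGCGGT, on both strands. The GATA hexamers searched were AGATAA together with AGATAG, and likewise TGATAA together with TGATAG, also on both strands. RefSeq windows were matched for 5 of the 7 genes. The Cd34 window held 1 GATA hexamer, AGATAG on the minus strand, read as CTATCT and starting 226 bases before the start. The Pdzk1ip1 window held neither motif. Among all 32536 windows of this length, 18.5% held a RUNX and 26.5% a GATA hexamer. Among the other matched members, Flt3 had TGCGGT on the minus strand, 61 bases before its start, and Kit and Procr had neither motif. A match describes letters only and shows no binding.

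Ly6a is a minus-strand gene of chromosome 15, 74994877 to 74998031 (GRCm38 throughout), and encodes a GPI-anchored protein that interferon induces. It ranged from 0.2 to 662.7 TPM, with a median of 328.1, in the 9 WT NMK cells. In the 6 WT MK cells it ranged from 0 to 1.1 TPM with a median of 0. All but 1 of the WT NMK cells lay above every WT MK cell, and that exception was replicate 3A at 0.2 TPM. KO NMK cells ranged from 0 to 359.1 TPM with a median of 202.6, and the values of 66.3 TPM or more were those of the 11 cells with sound housekeeping scores. KO MK cells split, with 342.2 TPM in replicate 2 and 199 TPM in B1-4, but 0.1 TPM in 1B and 0 TPM in B1-3 and 1A. The high values were those of the cells with low platelet-marker scores.

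Procr, on chromosome 2 from 155751117 to 155755471 on the plus strand, was patchy among NMK cells. It reached 365.4 TPM in WT NMK cells with a median of 14.2 and was listed at 0 in 3 of 9. It reached 367.9 TPM in KO NMK cells with a median of 0 and was listed at 0 in 7 of 13, of which 5 had sound housekeeping scores. WT MK cells held at most 0.8 TPM, with a median of 0. KO MK cells held 115.7 TPM in B1-4 and 50.3 TPM in replicate 2, and 0 TPM in 1B, B1-3 and 1A. The gene was thus found at 1 TPM or more in 6 of 9 WT NMK cells (66.7%, exact Clopper-Pearson bounds of 29.9 and 92.5% at the 95% level). Among KO NMK cells it was 6 of 13 (46.2%, with bounds of 19.2 and 74.9%). Both intervals, which reflect only the counting of cells, overlap widely.

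Kit encodes the receptor tyrosine kinase for stem cell factor and occupies chromosome 5 from 75574916 to 75656722 (plus strand). Its level was modest throughout, from 0 to 47.9 TPM (median 18.8) in WT NMK and from 0 to 63.9 TPM (median 16.6) in KO NMK cells. WT MK cells held 0.6 to 4.3 TPM with a median of 1.95, below 8 of the 9 WT NMK cells. KO MK cells held 54 TPM in B1-4, 21 TPM in replicate 2 and 0 TPM in 1B, B1-3 and 1A. Kit differed in this from Ly6a and Procr, since WT MK cells kept a low level, with 1 TPM or more in 5 of 6 (83.3%, exact interval 35.9 to 99.6%).

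Flt3, the receptor tyrosine kinase for FLT3 ligand, at chromosome 5, 147330741 to 147400489 (minus strand), was nearly undetected. It was 34.2 TPM in KO NMK 3A, 1.6 TPM in KO MK B1-4, 0.8 TPM in KO NMK 1 and 0.1 TPM in WT NMK 1, and 0 TPM in the other 29 cells. At least 1 TPM was seen in 0 of 9 WT NMK cells, where the exact upper bound is 33.6%, and in 1 of 13 KO NMK cells (7.69%, with bounds of 0.195 and 36.0%).

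Cd24a (chromosome 10, 43578284 to 43584265, plus strand) ranged from 0 to 385.8 TPM (median 195) in WT NMK cells and from 0 to 581.4 TPM (median 85.6) in KO NMK cells. WT MK cells held 0 to 3.3 TPM with a median of 0.05, below 8 of the 9 WT NMK cells. KO MK cells held 367.8 TPM in B1-4, 269.4 TPM in replicate 2, 27.6 TPM in 1B and 0 TPM in B1-3 and 1A. Unlike Ly6a, Cd24a was also listed at 0 in KO NMK cells with sound housekeeping scores, replicates B1-5 and 1B.

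Cd34 encodes a sialomucin that carries selectin ligands and is found at chromosome 1, 194938819 to 194961279, plus strand. It was present at 1 TPM or more in every WT cell, from 9.4 to 434.3 TPM (median 192.2) in NMK and from 67.4 to 155 TPM (median 75.05) in MK cells. KO NMK cells ranged from 0 to 1075.7 TPM with a median of 658.1, and 8 of 13 lay above every WT NMK cell. The lowest value among KO NMK cells with sound housekeeping scores was 204.6 TPM. KO MK cells held 1129.3 TPM in B1-4, 450 TPM in replicate 2, 353.4 TPM in 1B, 233.6 TPM in 1A and 123.5 TPM in B1-3. Cd34 was therefore present in platelet-rich and marker-poor KO MK cells alike, and 4 of the 5 lay above every WT MK cell.

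Pdzk1ip1 (chromosome 4, 115088708 to 115093899, plus strand) ranged from 48.2 to 316 TPM (median 174.8) in WT NMK and from 77.5 to 296.4 TPM (median 90.4) in WT MK cells. KO NMK cells ranged from 0 to 113.4 TPM with a median of 35.6, so that 7 of 9 WT NMK cells lay above every KO NMK cell. KO MK cells held 603.2 TPM in 1A, 373.3 TPM in 1B, 285.1 TPM in replicate 2, 271.4 TPM in B1-3 and 69.2 TPM in B1-4. All of these but B1-4 lay above every KO NMK cell.

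**Figure D1:**
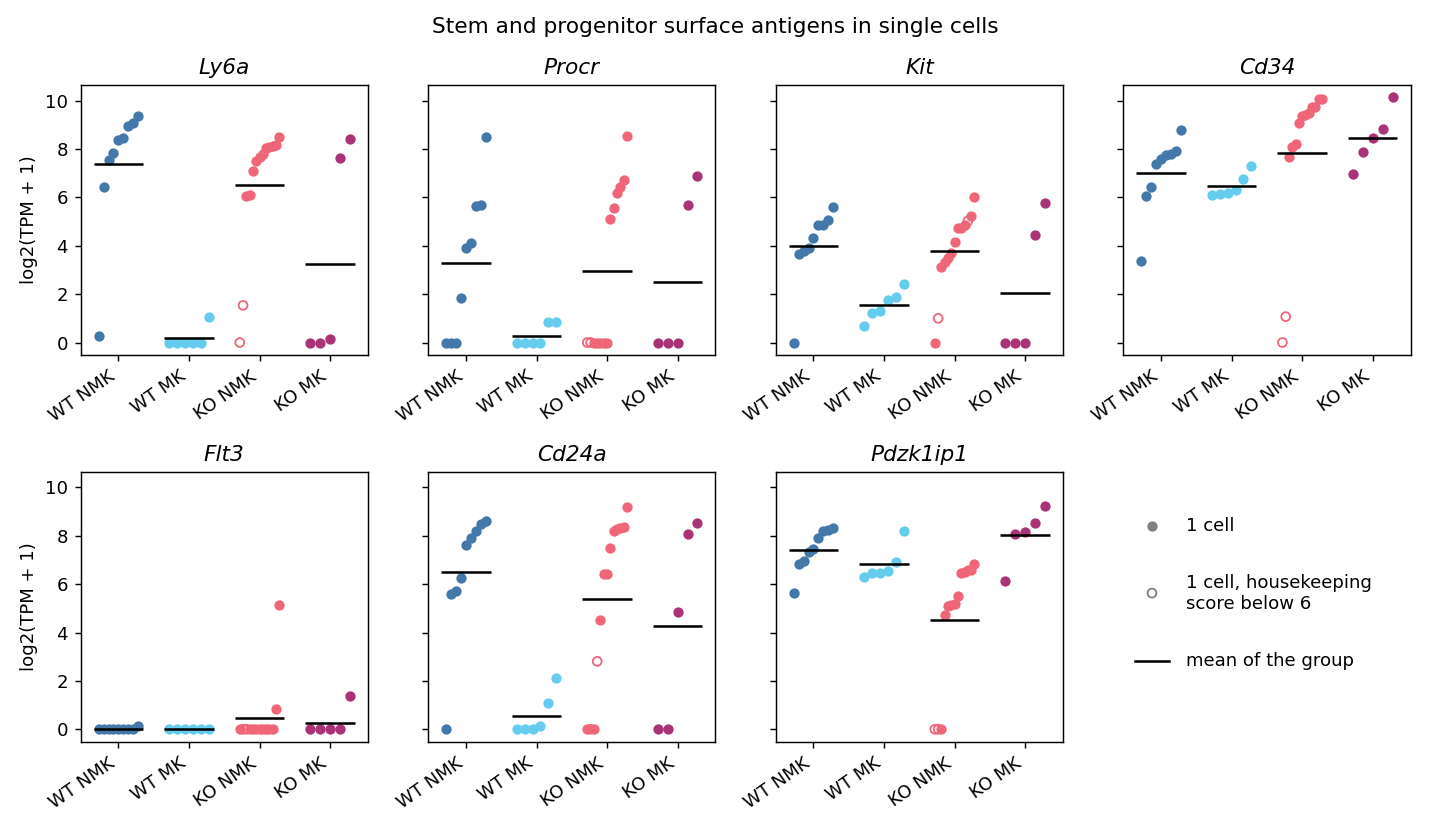
Level of each gene, as log2(TPM + 1), in the 33 cells by group, with 1 point per cell, open points for the 2 cells with a housekeeping score below 6 and a line at the group mean. WT MK cells sit at or near 0 for Ly6a, Procr and Cd24a but not for Cd34 and Pdzk1ip1, and KO MK cells split for Ly6a, Procr and Kit.

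The genes that shared reads with near-identical sequence are uncertain to that extent. Of 50-base windows of the transcripts, 91 of 906 of Ly6a recur in Ly6c1, Ly6c2, Ly6i or I830127L07Rik, and 69 of 1767 of Cd24a recur in Gm6212. Cd34 shares 102 of 2505 windows with the antisense gene Gm16897, and no source used here gives the strand setting of the counting. The mean of Gm16897 was 95.6 TPM in KO NMK, 88.1 TPM in KO MK, 27.0 TPM in WT NMK and 10.6 TPM in WT MK cells, the same order as Cd34. Reads from the shared windows, 4.07% of those of Cd34, cannot be told apart.

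Combinations in single cells followed the MK label only in part. All members except Flt3 were found together at 1 TPM or more in 6 of the 9 WT NMK cells, and the remaining 3 carried 4 members each. WT MK cells carried 3 members in 4 cells and 4 members in 2 cells, with Cd34 and Pdzk1ip1 in each. Among KO MK cells, B1-4 carried all 7 genes and replicate 2 carried 6. The platelet-rich cells carried Cd34 and Pdzk1ip1, and 1B carried Cd24a as well. Only KO NMK 3A also carried all 7 genes.

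**Figure D2:**
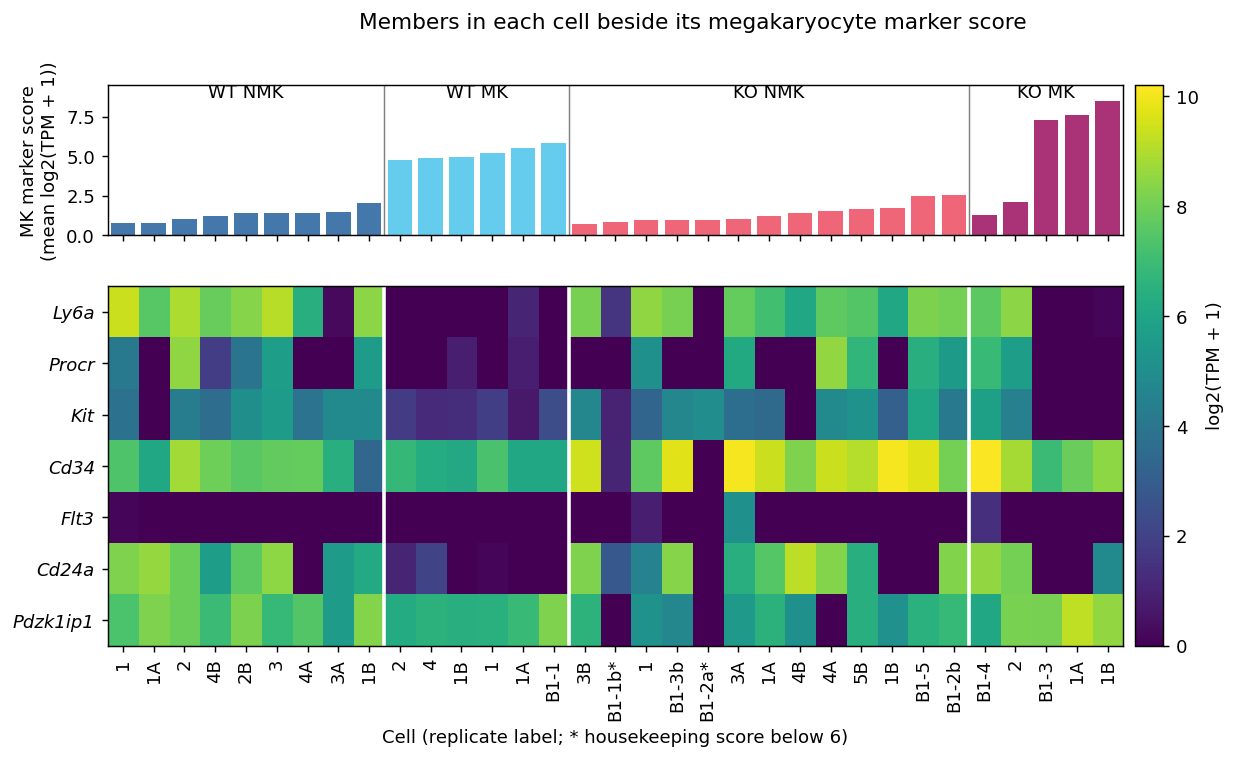
Level of the 7 genes, as log2(TPM + 1), in each of the 33 cells (lower panel, columns ordered by marker score within a group) beside the mean log2(TPM + 1) of 16 megakaryocyte-platelet genes (upper panel). The KO MK cells with scores of 1.27 and 2.11 carry Ly6a, Procr, Kit and Cd24a, and those with scores of 7.30 to 8.50 lack Ly6a, Procr and Kit.

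The order of the genes by mean TPM, a length-corrected level, differed between groups. In WT NMK cells Ly6a was first with 319.6 TPM ± 219 (SD, n = 9), followed by Pdzk1ip1 (196 ± 95.5), Cd24a (183 ± 145) and Cd34 (182 ± 124). Ly6a lay above Pdzk1ip1 by more than the SD of Pdzk1ip1 but by less than its own. Pdzk1ip1, Cd24a and Cd34 lay within 1 SD of each other. Procr (55.3 ± 118), Kit (21.5 ± 14.2) and Flt3 (0.011 ± 0.033) followed. In WT MK cells Pdzk1ip1 came first with 127 TPM ± 84.3 (SD, n = 6) and Cd34 next with 91.7 ± 34.6, and the other 5 means were 2.13 TPM or lower. In KO NMK cells Cd34 was first with 553 TPM ± 370.1 (SD, n = 13), ahead of Ly6a (179.7 ± 116), Cd24a (169 ± 182), Procr (54.4 ± 101), Pdzk1ip1 (50.1 ± 40.5) and Kit (20.5 ± 17.4). Cd34 was the most abundant member in 8 of 13 KO NMK cells and 3 of 9 WT NMK cells. In KO MK cells Cd34 averaged 458 TPM ± 395 and Pdzk1ip1 320.4 ± 193 (SD, n = 5), and these means do not describe Ly6a (108 ± 157), Procr, Kit or Cd24a, whose cells were split.

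MK-like and NMK cells of WT mice were compared to show which antigens accompany the MK label. Ly6a was lower in MK cells, with 0.18 TPM ± 0.45 against 319.6 TPM ± 219 and a difference of -7.19 (pooled SD 2.22). It was the lowest difference among the 11562 genes whose mean reached 1 TPM in MK or NMK cells. Ly6a reached this minimum through NMK cells alone, so the rank carries no weight. Cd24a differed by -5.93 (SD 2.18), Procr by -3.02 (SD 2.4) and Kit by -2.46 (SD 1.34). Cd34 and Pdzk1ip1 differed by -0.55 and -0.61, less than their pooled SDs of 1.27 and 0.82. In all, 4 of 6 measured members were lower by 1 or more, against 5.22% of all genes, and none was higher, against 37.4%. Their median was -2.74, while that of all genes was 0.70. Ly6a, Procr and Cd24a averaged 0.18, 0.27 and 0.75 TPM in MK cells. These genes reached the minimum through NMK cells alone, so the count and the median carry no weight for them. Flt3 did not reach the minimum. Without WT NMK 1B, which had only 9.4 TPM of Cd34, the Cd34 difference was -1.004. With the 5 WT MK libraries without a prefix counted once, 4 members were lower, and Cd34 and Pdzk1ip1 differed by -0.66 and -0.04. Housekeeping genes had a median difference of 0.63, with 4 of 14 higher and 1 lower. All 14 measured of 16 megakaryocyte-platelet genes were higher, with a median of 4.58. Summed over the list, MK cells held 13241 to 21794 TPM of them, and NMK cells 23 to 1597.5 TPM. In a scale of fixed total such transcripts lower all others, and their part in these differences was not tested. Every WT MK library also had more genes above 0 than any WT NMK library, and the part of this was not tested.

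The same comparison within KO mice included the 2 marker-poor cells labelled MK. Over all 5 MK and 13 NMK cells, Pdzk1ip1 was higher in MK cells by 3.52 (SD 2.38), and Ly6a differed by -3.27 (SD 3.19), Kit by -1.75 (SD 2.04) and Cd24a by -1.10 (SD 3.70). Procr, Cd34 and Flt3 differed by -0.45, 0.61 and -0.18. Thus 1 of 7 members was higher, against 34.2% of all genes, and 3 were lower, against 3.84%. Without the NMK libraries of low housekeeping score, 1 member was higher, against 26% of all genes, and 3 were lower, against 6.97%. Pdzk1ip1 then differed by 2.70 (SD 1.74) and Cd34 by -0.72 (SD 0.94).

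Without the marker-poor KO MK cells alone, a choice made after seeing the data, 1 member was higher, against 38.8% of all genes, and 4 were lower, against 6.26%. Without the low-housekeeping NMK cells as well, 3 MK and 11 NMK cells remained. Ly6a then differed by -7.51 (SD 0.75), Cd24a by -4.50 (SD 3.21), Kit by -3.94 (SD 1.44) and Procr by -3.50 (SD 3.15). Cd34 differed by -1.40 (SD 0.81) and Pdzk1ip1 by 3.30 (SD 1.77). Here 5 of 7 members were lower, against 9.5% of all genes, and 1 was higher, against 31.6%. Ly6a, Procr and Kit averaged 0.03, 0 and 0 TPM in the 3 MK cells. With the marker-poor cells left out, these genes reached the minimum through NMK cells alone, so their count as lower carries no weight. Pdzk1ip1 was the member higher by 1 or more in KO MK cells under each of these 4 choices of libraries. It averaged 320.4 TPM ± 193 in 5 KO MK cells, 416 TPM in the 3 platelet-rich ones and 59.3 TPM ± 37.1 in 11 sound KO NMK cells. In WT cells Pdzk1ip1 differed by -0.61 between the same labels, and whether the genotypes differ in this was not tested. Leaving out KO MK B1-4 gave Kit -2.68, Procr -1.54 and Cd24a -2.16, and leaving out KO MK 2 gave Procr -1.25 and Cd24a -2.05. Cd24a was below 1 in size without KO MK 1A or B1-3 (-0.03 each) and without KO NMK 1A, 3B, B1-2b, 4A, B1-3b or 4B (-0.78 to -0.92).

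**Figure D3:**
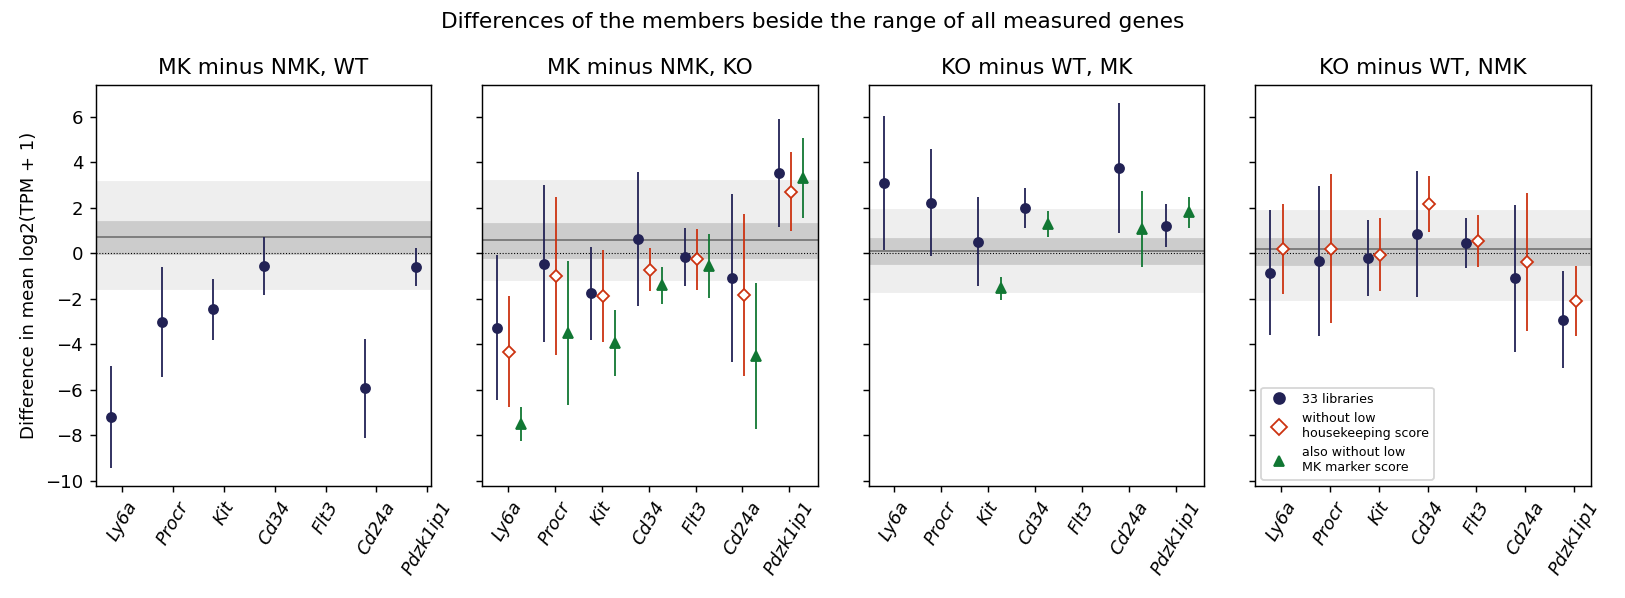
Difference in mean log2(TPM + 1) of each gene in the 4 comparisons (points, bars 1 pooled SD between cells), with all libraries (circles), without those of low housekeeping score (diamonds) and, for comparisons with KO MK cells, also without those of low marker score (triangles). Grey bands hold the central 50 and 95% of all measured genes and the grey line is their median. In MK against NMK cells of KO mice the triangles for Ly6a, Procr, Kit and Cd24a lie below the circles.

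KO and WT cells were compared within each label to set the 2 genotypes, as labelled, side by side. In MK cells, 5 of 6 measured members were higher in KO by 1 or more, against 12.4% of all genes, and none was lower, against 9.27%. The members' median was 2.11 and that of all genes 0.09. Ly6a, Procr and Cd24a averaged 0.18, 0.27 and 0.75 TPM in WT MK cells. These genes reached the minimum through KO MK cells alone, so the count and the median carry no weight for them. Cd24a differed by 3.74 (SD 2.85), Ly6a by 3.06 (SD 2.94), Procr by 2.23 (SD 2.33), Cd34 by 1.99 (SD 0.86), Pdzk1ip1 by 1.22 (SD 0.94) and Kit by 0.50 (SD 1.95). Ly6a, Procr, Kit and Cd24a rested on the marker-poor KO MK cells B1-4 and 2. Without both cells, Ly6a and Procr were under 1 TPM in both genotypes, Kit differed by -1.54 (SD 0.51), with 0 TPM against 2.13 TPM, and Cd24a differed by 1.06 (SD 1.66). Ly6a was 1.77 without KO MK 2 and 1.96 without B1-4, and Procr was 1.43 and 1.14. Kit became 1.02 without any one of 1A, 1B or B1-3.

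Cd34 and Pdzk1ip1 were higher in KO MK cells without those libraries too, by 1.30 (SD 0.57) and 1.81 (SD 0.68). With 3 KO cells, 3 of 4 measured members were higher, against 16.1% of all genes, and 1 was lower, against 9.58%. Kit reached the minimum through WT cells alone and Cd24a through KO cells alone, so the counts carry no weight for them. Megakaryocyte-platelet markers were higher for 15 of 16 (median 2.55) and erythroid markers for 4 of 4 measured (median 2.71) in the same comparison, and their part in it was not tested. Mean Cd34 was 237 TPM in these 3 cells and 91.7 TPM in WT MK cells. Pdzk1ip1 was 0.91 without KO MK 1A. Its difference with the 5 WT MK libraries without a prefix counted once is not given here. That count gives more weight to WT MK B1-1, with 296.4 TPM of Pdzk1ip1 against 77.5 to 120.2 TPM in the others. The Cd34 difference was 0.84 when the 2 KO MK libraries with a housekeeping score of 6 or more that the authors had left out were added to all 5. These were KO MK 1, with a score of 8.33, 4.2 TPM of Cd34, 848.5 TPM of Pdzk1ip1 and 0 TPM of Ly6a, and KO MK B1-1, with a score of 6.34, 90.2 TPM of Cd34 and mitochondrial genes at 71.5% of all TPM. Within libraries without a title prefix, Cd34 differed by 1.85 and Pdzk1ip1 by 2.11. With prefix B1, where WT had 1 cell, they differed by 2.46 and -1.10, so that Pdzk1ip1 changed direction. Interferon-response genes, among which Ly6a is often counted as a target, were higher in KO MK cells for 8 of 16 measured, with a median of 0.90, beside 12.4% of all genes. Without the marker-poor cells 3 of 13 were higher and 1 lower, with a median of 0.62, beside 16.1 and 9.58% of all genes. Their summed level ran from 101.4 to 858.8 TPM in KO and from 122.2 to 213.6 TPM in WT MK cells, and their part in the Ly6a difference was not tested.

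In NMK cells Pdzk1ip1 was lower in KO, with 50.1 TPM ± 40.5 (SD, n = 13) against 196 TPM ± 95.5 (SD, n = 9) and a difference of -2.91 (SD 2.13). Cd24a differed by -1.10 (SD 3.22), Ly6a by -0.85, Procr by -0.34, Kit by -0.20, Flt3 by 0.45 and Cd34 by 0.83 (SD 2.77). Over all libraries 2 of 7 members were lower, against 13.3% of all genes, and 0 higher, against 12.8%. Without the 2 libraries of low housekeeping score, Cd34 was higher by 2.16 (SD 1.22), with 654 TPM ± 304 (SD, n = 11) against 182 TPM ± 124 (SD, n = 9), and Pdzk1ip1 differed by -2.09 (SD 1.55), with 59.3 TPM ± 37.1 against 196 TPM ± 95.5. Then 1 member was higher, against 24.1% of all genes, and 1 lower, against 7.62%. Ly6a, Procr, Kit and Cd24a differed by 0.19, 0.20, -0.06 and -0.37, each within 1 SD. Housekeeping genes were higher by a median of 0.75 in the same cells, with 6 of 14 higher, and all genes by 0.36. Within libraries without a prefix, the only ones that WT NMK cells have, Cd34 differed by 2.15 and Pdzk1ip1 by -2.35.

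Single libraries moved several of these values over all 22 NMK cells. The Cd34 difference was 1.48 without KO NMK B1-2a, 1.39 without KO NMK B1-1b and 1.05 without WT NMK 2. Ly6a was -1.74 without WT NMK 3A, whose Ly6a was 0.2 TPM, and -1.02 without KO NMK 1. Cd24a was -1.91 without WT NMK 4A and between -0.65 and -0.96 without any one of WT NMK 1, 1A, 2, 2B or 3 or KO NMK 1B, B1-1b, B1-2a or B1-5.

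Cd34 and Pdzk1ip1 were also set against each other within cells, in a measure chosen after their values were seen. The log2(TPM + 1) of Cd34 minus that of Pdzk1ip1 within a cell does not depend on the fixed total in cells with high values of both. It ran from -4.93 to 0.99 with a median of 0.33 in the 9 WT NMK cells and from 1.23 to 9.36 with a median of 3.12 in the 11 sound KO NMK cells. The ranges did not overlap, which a difference between a gene that was higher and a gene that was lower favours by construction. How many other gene pairs do the same was not counted. Of the KO NMK cells of low housekeeping score, B1-2a was at 0, inside the WT range, and B1-1b at 1.07. The highest KO value was that of replicate 4A, where Pdzk1ip1 was listed at 0. In MK cells the ranges overlapped, at -2.12 to 0.81 in WT and -1.36 to 4.01 in KO.

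**Figure D4:**
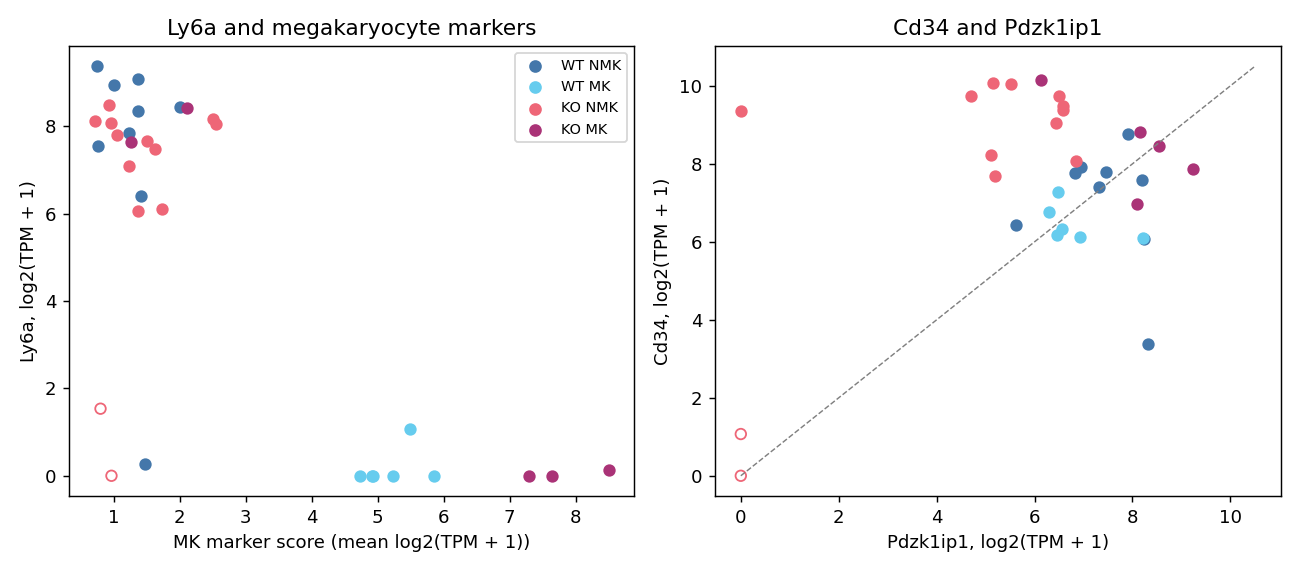
Left, Ly6a against the megakaryocyte marker score in each cell. Right, Cd34 against Pdzk1ip1, with a dashed line of equal level. All axes are log2(TPM + 1), and open points are the KO NMK cells of low housekeeping score. No cell with a marker score above 4 has more than 1.1 TPM of Ly6a. All 11 sound KO NMK cells lie above the dashed line, as do 6 of 9 WT NMK, 2 of 6 WT MK and 2 of 5 KO MK cells.

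Within NMK cells the members varied largely apart from each other. Over the 20 sound NMK cells of both genotypes, Pearson's r between members on the log2(TPM + 1) scale was highest for Ly6a with Procr (0.48) and Procr with Kit (0.48) and lowest for Cd34 with Pdzk1ip1 (-0.46). Within genotypes the last was -0.23 over 9 WT and -0.09 over 11 sound KO cells. Ly6a with Pdzk1ip1 was 0.71 over 9 WT and 0.07 over 11 KO cells, and Ly6a with Kit was -0.06 and 0.69. These are descriptions over cells that share culture, library kit and a fixed total.

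Genes with the most similar pattern over all 22 NMK cells were Oat, Arf1 and Morf4l2 for Cd34 (r 0.94, 0.93 and 0.93), Mrps36, Lsm10 and Hint2 for Pdzk1ip1 (0.94, 0.93 and 0.93) and Pnp, Tmem223 and Ppp1r14b for Ly6a (0.92, 0.92 and 0.91). They were Pcmt1, Etnk1 and Arf6 for Kit (0.82, 0.79 and 0.77), Kat7, Ptpn12 and Prps1 for Cd24a (0.78, 0.77 and 0.73) and Pdcd6ip, Homer3 and Lmna for Procr (0.71, 0.68 and 0.68). Over the 20 sound cells other genes came first for 4 of the 6 members, Myct1 for Kit (0.85), Wdr6 for Cd24a (0.76), Copg2 for Procr (0.73) and Tmem223 for Ly6a (0.82). In those cells the first-named gene of each had r of 0.88 for Oat, 0.87 for Mrps36, 0.82 for Pnp, 0.78 for Pcmt1, 0.75 for Kat7 and 0.67 for Pdcd6ip. Each of these 6 values was lower without the low libraries, and 5609 genes were compared.

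Related genes from lists chosen with earlier results of these data known are given for context. A gene that reached the minimum through 1 group alone carries no weight in any of their counts. Among 30 other stem and progenitor surface antigens, 22 were measured between MK and NMK cells of WT mice, with 8 higher and 5 lower by 1 or more, beside 37.4 and 5.22% of all genes. Cd27, Cd93 and Cd81 differed by -2.79, -2.48 and -1.86. Cd9, chosen as an example of the higher ones after its values were seen, differed by 1.17. Slamf1 was listed at 0 in all WT NMK cells, so it lends no weight to the count of higher genes. Between MK and NMK cells of KO mice 13 of 27 were higher and 2 lower, beside 34.2 and 3.84% of all genes. Slamf1 (CD150, a long-term stem cell and megakaryocyte-progenitor marker) differed by 5.35 and the tetraspanin Cd9 by 3.55. Cd38 was listed at 0 in all KO NMK cells and Fcgr3 averaged 0.2 TPM in the sound ones. Neither carries weight as a higher gene. Without low housekeeping scores the counts were 9 and 5, beside 26 and 6.97% of all genes. Without low scores of either kind they were 8 and 6 of 26, beside 31.6 and 9.5%.

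Between KO and WT MK cells 11 of 24 other antigens were higher and 0 lower, beside 12.4 and 9.27% of all genes, with a median of 0.99 beside 0.09. Cd48, a SLAM-family antigen that long-term stem cells lack, held 32.9 to 542.7 TPM in KO MK and 0 to 0.8 TPM in WT MK cells, a difference of 6.64 (SD 1.34). Cd48 reached the minimum through KO MK cells alone, so its count as higher carries no weight. It was listed at 0 in all WT NMK cells and averaged 95.4 TPM ± 94.8 (SD, n = 13) in KO NMK cells. Slamf1 differed by 3.55, Fcgr3 by 2.88 and Cd27 by 2.53. Without the marker-poor KO MK cells 12 of 22 were higher and 2 lower, beside 16.1 and 9.58% of all genes. Between KO and WT NMK cells 3 of 23 were higher and 3 lower, about the 12.8 and 13.3% of all genes. Without low housekeeping scores 9 were higher and 2 lower, beside 24.1 and 7.62%. The differences included Cd9 at -2.51 and Cd93 at -1.51 over all libraries. Without those scores Cd9 was -2.01 and Cd93 -0.97.

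Genes of Kit and Flt3 signalling were measured for 19 of 22. In KO against WT NMK cells 8 were higher and 0 lower, or 10 and 0 without low housekeeping scores, beside 12.8 and 13.3% of all genes over all libraries and 24.1 and 7.62% without them, where the list's median was 1.09 beside 0.36 for all genes and 0.75 for housekeeping genes. Lyn, a Src-family kinase, differed by 1.76 and Dok2, an adaptor, by 1.59 over all libraries, and by 2.52 and 2.16 without those scores. The receptors themselves differed by less than 1, Kit by -0.20 and Flt3 by 0.45. In KO against WT MK cells 4 were higher and 2 lower, beside 12.4 and 9.27% of all genes. Lyn was at 1.47, the phosphatase Ptpn6 at 1.41 and the phosphatase Ptpn11 at -1.04. Without the marker-poor cells 6 were higher and 0 lower, beside 16.1 and 9.58%. In MK against NMK cells of WT mice 8 were higher and 1 lower, about the 37.4 and 5.22% of all genes. Ptpn11 was at 3.23 and Ptpn6 at -1.62. In KO mice 7 were higher and 1 lower, about the 34.2 and 3.84% of all genes. Without low housekeeping scores 3 were higher and 2 lower, beside 26 and 6.97%.

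Other Ly6-family genes of chromosome 15 were measured for 5 of 11 between WT MK and NMK cells, and were low apart from Ly6e. Ly6c1, Ly6c2, Ly6i and Ly6f averaged 1.97 to 4.94 TPM in NMK cells and 0.017 TPM or less in MK cells. They reached the minimum level through NMK cells alone, so that their count as lower carries no weight, and Ly6c1, Ly6c2 and Ly6i share sequence with Ly6a. Ly6e, the most abundant of them, averaged 54.6 TPM ± 45.9 in the MK group against 129 TPM ± 49.7 among NMK cells, a difference of -1.43 (SD 0.72). Between KO and WT NMK cells none of 5 passed 1 in either direction, beside 12.8% of all genes higher and 13.3% lower. In MK against NMK cells of KO mice 1 of 5 was higher and 1 lower, beside 34.2 and 3.84% of all genes. The higher one was listed at 0 in all KO NMK cells, so its count carries no weight. In KO against WT MK cells 2 of 3 were higher, beside 12.4%. Without the marker-poor cells the former became 0 higher and 3 lower of 4, beside 38.8 and 6.26% of all genes. The latter became 1 higher and 1 lower of 2, beside 16.1 and 9.58%.

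The 4 other protein C pathway genes measured were all higher in WT MK than in NMK cells, beside 37.4% of all genes. Pros1 (protein S, the cofactor of protein C) differed by 3.69 and F2r (the thrombin receptor PAR1) by 2.11. Apart from Pros1 and F2r they reached the minimum through MK cells alone, so their count as higher carries no weight. In KO 3 of 5 were higher, beside 34.2%, and 0 lower, with Pros1 at 5.52. Of the higher ones, Thbd was listed at 0 in all KO NMK cells and likewise carries no weight. Among 7 measured sialomucin and ligand genes related to CD34 and CD24, 4 were higher and 1 lower in WT MK cells. These counts stand beside 37.4 and 5.22% of all genes. The CD34 relative Podxl was at 4.20, Selp (P-selectin) at 3.15 and its ligand Selplg at -4.67. Podxl averaged 0.078 TPM in WT NMK cells and reached the minimum through MK cells alone, so its count as higher carries no weight. In KO MK against NMK cells 4 were higher and 1 lower, beside 34.2 and 3.84% of all genes, with Selp at 4.50 and Selplg at -2.59. Without low housekeeping scores 2 were higher and 2 lower, beside 26 and 6.97%. Podxl differed by -1.91 between KO and WT MK cells. In KO against WT cells, 2 genes were higher and 1 lower under each label. The shares of all genes were 12.4 and 9.27% in MK and 12.8 and 13.3% in NMK cells. Without low housekeeping scores 5 were higher and 1 lower in NMK cells, beside 24.1 and 7.62%. Without low marker scores 2 were higher and 3 lower of 6 in MK cells, beside 16.1 and 9.58%.

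**Figure D5:**
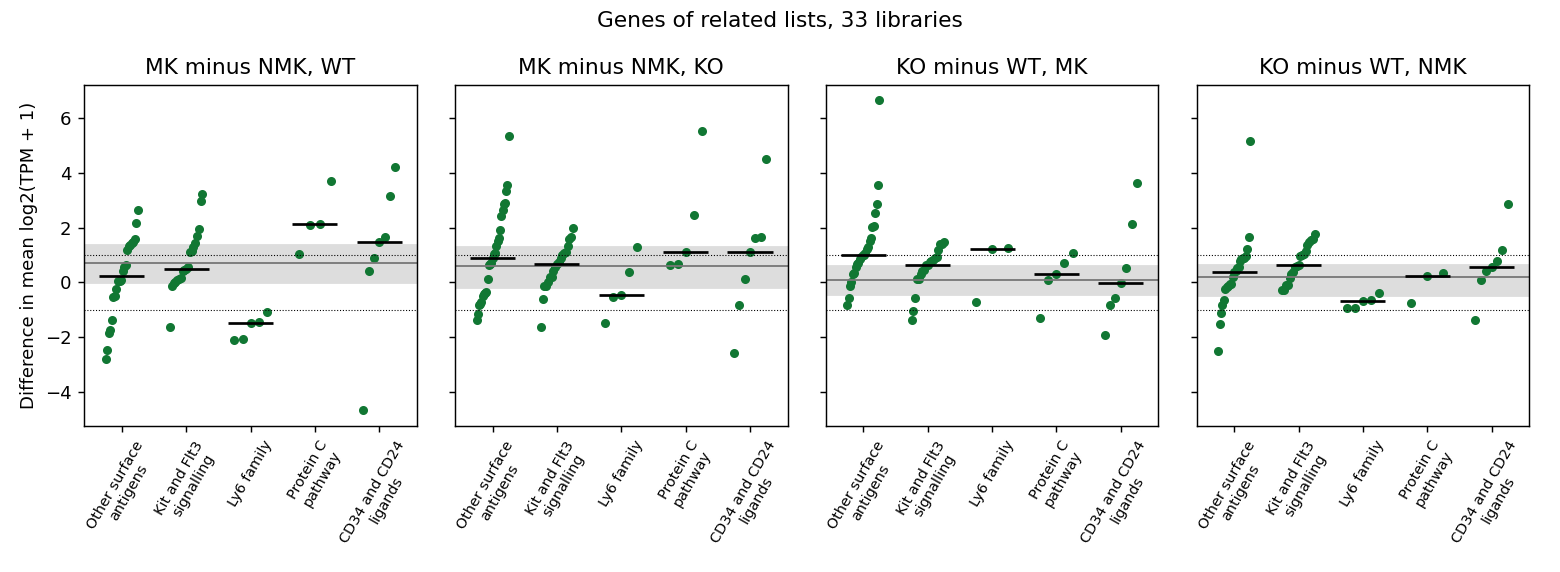
Difference in mean log2(TPM + 1) of each measured gene (points) of 5 related lists in the 4 comparisons over 33 libraries, with the list's median (black line), the central 50% of all measured genes (grey band), their median (grey line) and dotted lines at 1 and -1. The Ly6-family genes in MK against NMK cells of WT mice are, apart from Ly6e, genes at low levels, and Cd48 is the highest point in both KO against WT panels.

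Markers of other lineages were measured in the same cells. In each group of the 33 libraries, Il7r, Ebf1 and Pax5, of 10 lymphoid markers, were listed at 0 in all cells, and the summed lymphoid level reached 132 TPM at most. Granulocyte-monocyte markers summed to 0 to 148.5 TPM in WT NMK, 45.1 to 87.8 in WT MK, 0.7 to 109.8 in KO NMK and 2.6 to 180.4 TPM in KO MK cells. Erythroid markers reached 1033.8 TPM in WT NMK, 179.7 in WT MK, 3078.5 in KO NMK and 1848.5 TPM in KO MK cells, with medians of 1.7, 22.6, 84.6 and 88.7 TPM. Their part in the differences of the antigens was not tested.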

How the data were processed

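Single-cell libraries were made with SMART-Seq kits, per the labels' protocols. Values are TPM with 1 decimal, as the authors deposited them, for 46 libraries and for 33 of these. The submitters' processing notes name the genome mm10 and, in no stated order, STAR 2.6.1e, cutadapt 1.9.1, featureCounts 1.6.2 and FastQC 0.11.7. How outliers were chosen, counts turned into TPM and genes annotated was not given in the sources used here. Because each library's TPM add up to the same total, depth is unknown, and low capture lists genes at 0.

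Columns were matched to samples by the labels. The labels list 90 samples, 44 of which were not analysed here. A further column, 1 in number, fitted no sample and was not used. The members and lists were chosen with earlier results of these data known. All 7 members are named, and from every other list up to 4 genes per comparison, those with the largest difference whose mean reached 10 TPM under either label. Of these, some were picked as examples after their values were seen, and some are not reported here. For each member found in 50% of NMK cells, the 3 genes of highest Pearson r are named. Differences used a pseudocount of 1 over genes whose mean reached 1 TPM in 1 of the groups compared, which understates low genes. Limits of 6 on the housekeeping score and 4 on the marker score were set after seeing the data. Intervals are exact Clopper-Pearson at 95%. No test was run, and picked cells were not screened for doublets. The alternatives were the full table, pseudocounts of 0.1 and 10, ratios of means, medians, other scalings, other filters, each prefix alone and each library left out. The calculation was tested on simulated data. Positions came from GENCODE M21 on GRCm38 and promoters from RefSeq. Calculations ran in Python 3.11.15 with scipy 1.17.1, pandas 2.3.3 and numpy 2.4.6, and plots in matplotlib 3.10.9.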

Additional observations from a re-analysis of the deposited data

Results flagged for a closer look

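Within groups of 4 to 10 cells, 20 sets of values were checked for a cell far from the others. The rule flags about 1 in 20 sets of normally distributed values, which these need not be, so that rate is no guide here. A set with only 1 cell above 0 is always flagged, as for Flt3 in both groups below and Ly6a in WT MK cells. In WT NMK cells, Ly6a was 0.2 TPM in replicate 3A against 84.5 to 662.7 TPM in the others. Kit was 0 TPM in replicate 1A against 11.5 to 47.9 TPM, Cd34 was 9.4 TPM in replicate 1B against 66.1 to 434.3 TPM, and Cd24a was 0 TPM in replicate 4A against 47.7 to 385.8 TPM. Flt3 was 0.1 TPM in replicate 1 and 0 in the others. In WT MK cells, Ly6a was 1.1 TPM in replicate 1A and 0 TPM in the others, and Pdzk1ip1 was 296.4 TPM in B1-1 against 77.5 to 120.2 TPM in the libraries without a prefix. In KO MK cells, Flt3 was 1.6 TPM in B1-4 and 0 TPM in the others. The outlying WT NMK values of Ly6a, Kit, Cd34 and Cd24a came from 4 different cells.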

How the results depend on the processing

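No paired analysis was possible because no test was run and each group counts as 1 sample. Of 342 alternative values of 26 member differences, 319 moved by less than 1 SD, 21 moved further and 2 called values changed sign, both with prefix B1 alone: Cd24a in MK against NMK cells of KO mice (0.38) and Pdzk1ip1 in KO against WT MK cells (-1.10). The SD is that between cells and wide, so the 319 are no measure of stability. They include Cd34 in MK against NMK cells of KO mice at 0.61 and, without low scores of either kind, -1.40. Procr there went from -0.45 to -2.96 without low marker scores. Some alternatives used the same cells as the main values. The cause was not tested. In MK against NMK cells of KO mice, members lower by 1 or more numbered 5 in the full table, with or without low housekeeping scores, and 5, with a median of -3.50, without low scores of either kind. They numbered 1 with a pseudocount of 10 or the ratio of means, and 3 were higher with prefix B1 alone. In KO against WT MK cells, 3 were higher and 1 lower with medians over cells or without low marker scores, and 1 was lower with prefix B1 alone. In KO against WT NMK cells, 1 was higher and 1 lower without low housekeeping scores in either table, with a pseudocount of 10 and without prefixed libraries. By the ratio of means 2 were higher and 1 lower, by medians 1 was higher, and 1 was lower without mitochondrial and ribosomal protein genes or with median-ratio scaling. Leaving out 1 library gave 0 to 1 higher and 1 to 2 lower. In the full table, WT MK cells fell further below NMK cells for Cd34 (-2.43) and Pdzk1ip1 (-2.73). Without the filter on low values 18.5% of genes were higher and 2.59% lower in WT MK cells. With no depth known, a listed 0 cannot be told from a missed transcript.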

Other observations

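Among libraries that the authors left out of their second table, the members of KO NMK B1-1a resembled those of the KO NMK cells kept, with 761.6 TPM of Cd34, 191.3 TPM of Cd24a, 124.7 TPM of Ly6a, 35.1 TPM of Pdzk1ip1, 21.2 TPM of Procr and 12.2 TPM of Kit, and a housekeeping score of 9.99. KO MK 1, with a score of 8.33, held 848.5 TPM of Pdzk1ip1, the highest of all 46 libraries, 4.2 TPM of Cd34 and 0 TPM of the other 5 genes. WT MK B1-2 held 16.5 TPM of Kit and 0 TPM of the other 6 genes at a housekeeping score of 4.71.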
